A study of Homo sapiens with 6 samples.

Results

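The AP-1, MYC and early response genes are 10 genes, FOS, FOSL1, FOSL2, JUN, JUNB, JUND, EGR1, IER3, PHLDA1 and MYC, taken by name from the 33835 genes with values in a table of RNA sequencing counts. All 10 have a row and all 10 passed the filter on low counts, which kept 19433 genes. The cells were DU145, an established human prostate cancer line. One group, shE6AP, carried a short hairpin against E6AP, the HECT-type ubiquitin ligase encoded by UBE3A, and the other, wobble, carried a control hairpin. Each group had 3 libraries, and both groups received doxycycline, the inducer of the knockdown, at 0.2 µg/ml for 2.5 days. The labels call the control a control against E6AP, do not give either hairpin sequence, do not say whether the cells are pools or clones, and do not say whether libraries of a group came from separate cultures. The p-values therefore measure only the spread between these libraries, which may be technical. In edgeR that spread is taken in part from other genes. The study asked which genes E6AP regulates at the transcript level.

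AP-1 is a dimer of a FOS protein and a JUN protein, or of JUN proteins with each other, held together by leucine zippers. Growth factors, serum and stress act through ERK, JNK and other kinases on factors already present, such as SRF with ELK proteins, and these switch on FOS, EGR1, IER3 and related genes within minutes, before new protein is made. Their RNAs are mostly short-lived, so their level follows recent signalling. FOSL1, FOSL2, JUNB and JUND make AP-1 dimers of other composition, and MYC, a factor that pairs with MAX, is induced by the same signals and drives growth.

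The start regions of 7 of the 10 members, those that matched a RefSeq promoter by symbol, were searched for sites known to take up these signals. The promoters are from GRCh38.p14, the counts were made on hg19, and no coordinate links them. Only the 250 bases before the start were searched, so sites further upstream or elsewhere in a gene were not seen. The 250 bases before the start are printed 5′ to 3′ for PHLDA1, which had the largest rise, for the JUN genes, which moved apart, and for EGR1, which did not pass the test. Capitals mark matches to TGACGTCA (the cyclic AMP response element), TGACGT (its shorter form, which TGACGTCA holds on both strands), TGACATCA (an AP-1 site variant), TGANTCA (the AP-1 site) and the CArG box bound by SRF, each searched on both strands. The windows are chr12:76031777-76032026, minus strand (PHLDA1), chr1:58784048-58784297, minus strand (JUN), chr19:12791236-12791485, plus strand (JUNB), chr19:18281623-18281872, minus strand (JUND) and chr5:138465229-138465478, plus strand (EGR1).
PHLDA1: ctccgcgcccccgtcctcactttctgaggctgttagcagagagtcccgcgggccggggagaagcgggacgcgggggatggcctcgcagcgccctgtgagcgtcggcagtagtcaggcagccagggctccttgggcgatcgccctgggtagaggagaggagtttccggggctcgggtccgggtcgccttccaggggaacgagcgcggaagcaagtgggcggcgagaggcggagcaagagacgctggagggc
JUN: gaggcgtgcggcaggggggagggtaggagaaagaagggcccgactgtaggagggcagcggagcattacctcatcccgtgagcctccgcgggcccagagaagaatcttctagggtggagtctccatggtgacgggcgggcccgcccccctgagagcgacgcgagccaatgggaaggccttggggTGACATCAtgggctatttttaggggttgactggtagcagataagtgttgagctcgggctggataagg
JUNB: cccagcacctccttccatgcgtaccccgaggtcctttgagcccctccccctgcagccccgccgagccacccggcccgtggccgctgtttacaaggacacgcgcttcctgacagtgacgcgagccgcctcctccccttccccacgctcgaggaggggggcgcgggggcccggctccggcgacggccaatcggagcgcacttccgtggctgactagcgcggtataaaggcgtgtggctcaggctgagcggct
JUND: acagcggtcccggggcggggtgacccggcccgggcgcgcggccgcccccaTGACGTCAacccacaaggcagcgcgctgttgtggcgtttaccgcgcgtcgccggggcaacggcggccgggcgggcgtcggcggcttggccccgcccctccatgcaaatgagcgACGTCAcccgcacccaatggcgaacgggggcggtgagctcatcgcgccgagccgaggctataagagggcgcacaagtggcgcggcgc
EGR1: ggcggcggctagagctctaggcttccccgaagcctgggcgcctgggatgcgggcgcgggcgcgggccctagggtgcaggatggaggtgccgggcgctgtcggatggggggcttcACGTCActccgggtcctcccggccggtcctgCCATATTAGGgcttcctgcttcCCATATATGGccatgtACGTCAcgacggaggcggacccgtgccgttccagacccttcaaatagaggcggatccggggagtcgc
In this window the EGR1 promoter held 2 CArG boxes and 2 matches to TGACGT. A CArG box was in 1 of the 7 windows and in 1.16% of 35116 promoters of the same length. TGACGT was in 4 of the 7, those of FOS, FOSL2, JUND and EGR1, and in 7.1% of all promoters. JUND also had the full TGACGTCA, found in 1.65% of promoters, and JUN had TGACATCA, found in 2.37%. No match to these 5 was found in the windows of JUNB and PHLDA1, and TGANTCA was in none of the 7 and in 6.57% of all promoters. A match to letters describes the window and shows no binding, and a window without a match does not show that the gene lacks the site.

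In cells with the E6AP hairpin the AP-1 genes moved in opposite directions within each family. FOSL1 and JUN rose while FOS, FOSL2, JUNB and JUND fell, to between 0.638 and 0.825 of the wobble level for those that fell. The early response genes IER3 and PHLDA1 rose 1.82-fold and 2.54-fold, MYC rose 1.13-fold, and EGR1 did not pass the test. In all, 5 members rose, 4 fell and 1 did not pass, with edgeR's quasi-likelihood test and a Benjamini-Hochberg adjusted p under 0.05 over all genes tested. The background is high: 59.0% of all tested genes passed (28.6% higher and 30.4% lower), and 80.0% of the 2427 genes whose mean level lay in the members' range of 87.3 to 330 CPM (CPM, counts scaled to a common library size with TMM factors). The groups did not overlap for 9 of the 10 members and for 62.6% of all genes. The median size of the log2 fold change, either way, was 0.37 over the members, 0.264 over all tested genes and 0.22 over genes in the members' range of level. PHLDA1 was the 1 member past a doubling, and 6.74% of all genes both passed and changed at least that much.

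**Figure D1:**
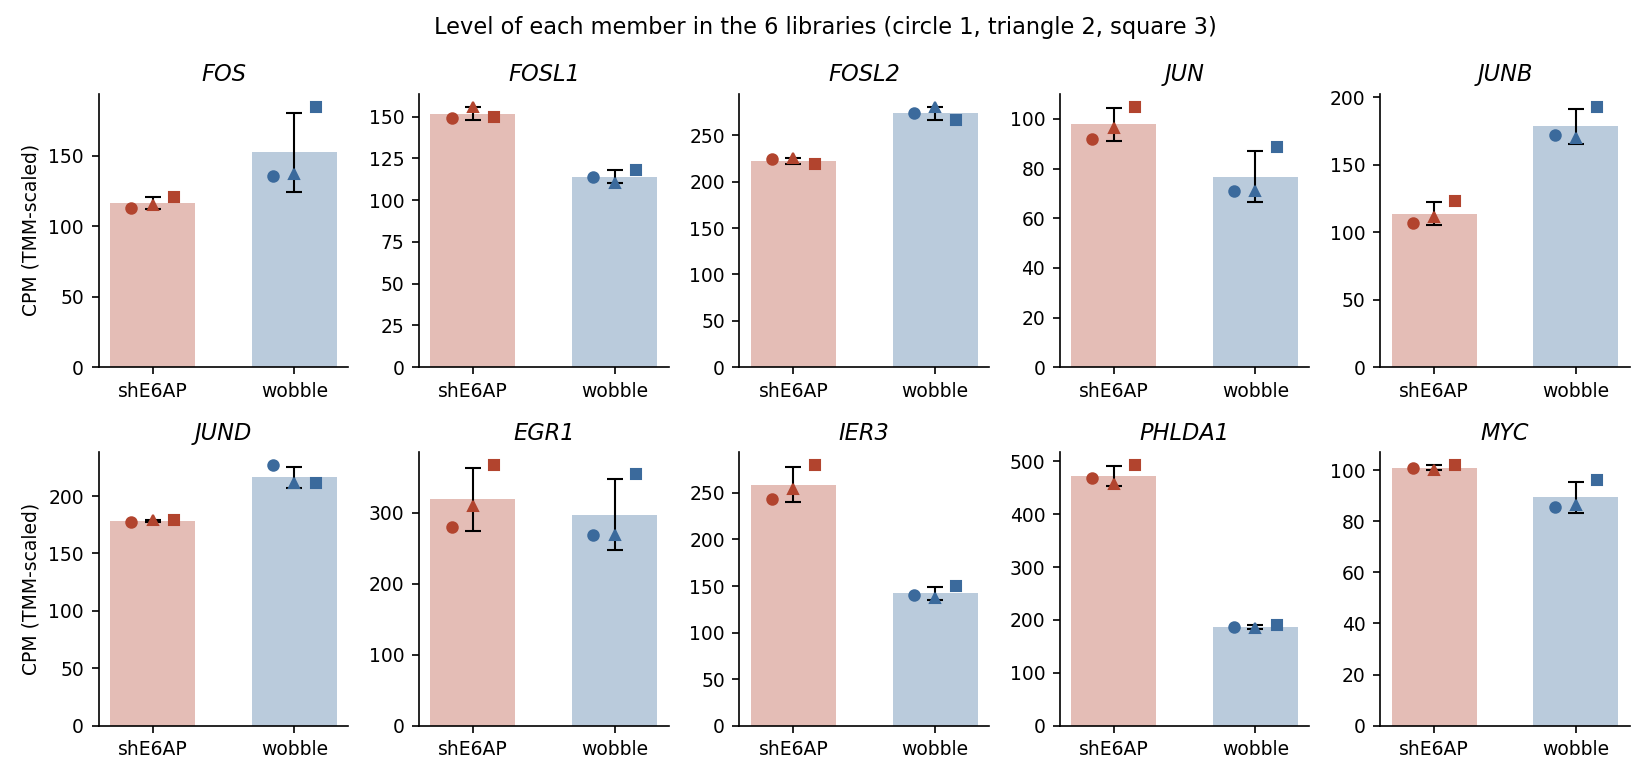
Level in CPM (vertical axis, from 0) of each member in the shE6AP libraries (left) and the wobble libraries (right). Points are libraries, bars the mean and error bars the SD of 3 libraries; the groups overlap for EGR1 and for no other member.

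Read totals and the target gene bear on every value below. Gene reads ran from 21558506 to 28228823 in shE6AP and from 27336700 to 30488217 in wobble libraries, so a single read was worth at most 0.0464 CPM before TMM scaling. UBE3A stood at 14.2, 14.5 and 15 CPM in shE6AP, against 54.1, 55.4 and 57.9 CPM in wobble. The share of gene reads on mitochondrially encoded genes was 8.19 ± 0.661% for shE6AP libraries and 6.60 ± 0.200% for wobble libraries (SD, n = 3 each); the part of this shift, or of depth, in the results was not tested. All 6 epithelial markers were present, with a summed level of 2160 to 2210 CPM in shE6AP and 2790 to 2930 CPM in wobble. They did not move together. KRT7 averaged 1120 CPM in shE6AP and 1910 CPM in wobble. KRT19 averaged 196 CPM in shE6AP and 215 CPM in wobble, and CDH1 27.1 CPM in shE6AP and 30.1 CPM in wobble. In the other direction, EPCAM averaged 36.4 CPM in shE6AP and 17.7 CPM in wobble. KRT18 averaged 442 CPM in shE6AP and 351 CPM in wobble, and KRT8 370 CPM in shE6AP and 318 CPM in wobble. Of 6 blood cell markers and 6 endothelial or fibroblast markers, 1 each averaged at least 1 CPM over the 6 libraries (CD68 and COL1A1). ITGAM, a blood cell marker, averaged 1.14 CPM in shE6AP and 0.351 CPM in wobble, against the direction of that list's sum. Blood cell markers summed to 25.6 to 27.9 CPM in shE6AP, against 34.8 to 36.7 CPM in wobble. Endothelial and fibroblast markers summed to 17.9 to 19.2 CPM in shE6AP, against 12.5 to 15.1 CPM in wobble, and the part of either list in the results was not tested. CD3E, HBB and PECAM1 were not analysed here.

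Among the FOS genes, FOSL1 rose and its relatives fell. FOSL1 encodes FRA1, a FOS family protein that lacks the strong activation domain of FOS and is prominent in invasive carcinoma lines. It stood at 149, 156 and 150 CPM in shE6AP, against 114, 110 and 118 CPM in wobble. Every shE6AP library lay above every wobble library. The log2 fold change was 0.41 (SE 0.036, adjusted p = 1.4e-13 in edgeR's quasi-likelihood test). FOSL2, which encodes FRA2, stood at 224, 225 and 219 CPM in shE6AP, against 274, 281 and 267 CPM in wobble. The groups were apart here too, in the other direction, with a log2 fold change of -0.30 (SE 0.032, adjusted p = 6.77e-11 in edgeR). FOS, the founding member and the one most quickly induced by serum, stood at 113, 115 and 121 CPM in shE6AP, against 136, 137 and 185 CPM in wobble. The highest wobble library was well above the other two, while the shE6AP libraries lay close together. FOS fell with a log2 fold change of -0.39 (SE 0.058, adjusted p = 1.71e-07 in edgeR, 0.0253 in DESeq2). Without wobble library 3 the log2 fold change was -0.24 (adjusted p = 8.51e-07). In raw reads, FOS had 3223, 2465 and 2893 in shE6AP libraries, against 4133, 3957 and 5008 in wobble libraries.

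Among the JUN genes, JUN rose and JUNB and JUND fell. JUN encodes the AP-1 subunit that JNK phosphorylates. It stood at 92.1, 96.2 and 105 CPM in shE6AP, against 71.0, 70.9 and 88.5 CPM in wobble. The lowest shE6AP library was only slightly above the highest wobble library. The log2 fold change was 0.35 (SE 0.052, adjusted p = 1.42e-07 in edgeR, 0.0095 in DESeq2). JUNB, a weaker activator that can oppose JUN in some settings, had the largest fall of the 10. It stood at 107, 111 and 123 CPM in shE6AP, against 172, 170 and 193 CPM in wobble. No library of either group came near the other group, and the log2 fold change was -0.65 (SE 0.043, adjusted p = 2.74e-17 in edgeR). JUND, the JUN gene that is expressed most steadily in resting cells, stood at 177, 179 and 179 CPM in shE6AP, against 227, 211 and 211 CPM in wobble. It fell by 0.28 on the log2 scale (SE 0.034, adjusted p = 1.69e-09 in edgeR). In GENCODE 29, an annotation on another build than the counts, exons of HOOK2 overlap those of JUNB. The kit does not mark strand, so reads in the overlap cannot be assigned, and HOOK2 itself averaged 27.3 CPM in shE6AP and 31.2 CPM in wobble.

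Ratios between relatives in the same library need no scaling between libraries, and they put a size on the shift between their transcripts. Proteins and dimers were not measured. The log2 ratio of JUNB reads to JUN reads was 0.22, 0.20 and 0.23 in shE6AP, against 1.27, 1.26 and 1.13 in wobble. The difference of the means, shE6AP minus wobble, was -1 on the log2 scale. Reads on JUNB outnumbered those on JUN in all 6 libraries, and the margin was smaller in all 3 shE6AP libraries than in the wobble libraries. The ratio of JUND to JUN averaged 0.87 ± 0.090 in shE6AP and 1.5 ± 0.22 in wobble (SD, n = 3 each). The ratio of FOSL1 to FOS was 0.40, 0.43 and 0.31 in shE6AP, against -0.26, -0.32 and -0.64 in wobble. Reads on FOSL1 thus outnumbered those on FOS in every shE6AP library and in no wobble library. These reads are not scaled for exon length, so the sign of a ratio does not rank the transcripts. Per kilobase of exon, FOSL1 averaged above FOS in both groups. The means were 82.4 against 39.6 CPM per kilobase in shE6AP, and 62.0 against 52.0 in wobble, where the ranges overlapped. The FOSL1 to FOSL2 ratio averaged -0.55 ± 0.030 in shE6AP and -1.27 ± 0.091 in wobble, and JUNB to JUND -0.65 ± 0.099 in shE6AP and -0.28 ± 0.14 in wobble (SD, n = 3 each). For FOSL2 to FOS, both of which fell, the groups overlapped, with 0.93 ± 0.068 in shE6AP and 0.86 ± 0.28 in wobble (SD, n = 3 each). Exact two-sided permutation tests gave p = 0.1 for each of 5 ratios, the smallest that 3 libraries against 3 allow, and p = 1 for FOSL2 to FOS. Adjusted over the 6 ratios, these exact tests gave p = 0.12 for the 5, so none can pass in this design.

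**Figure D2:**
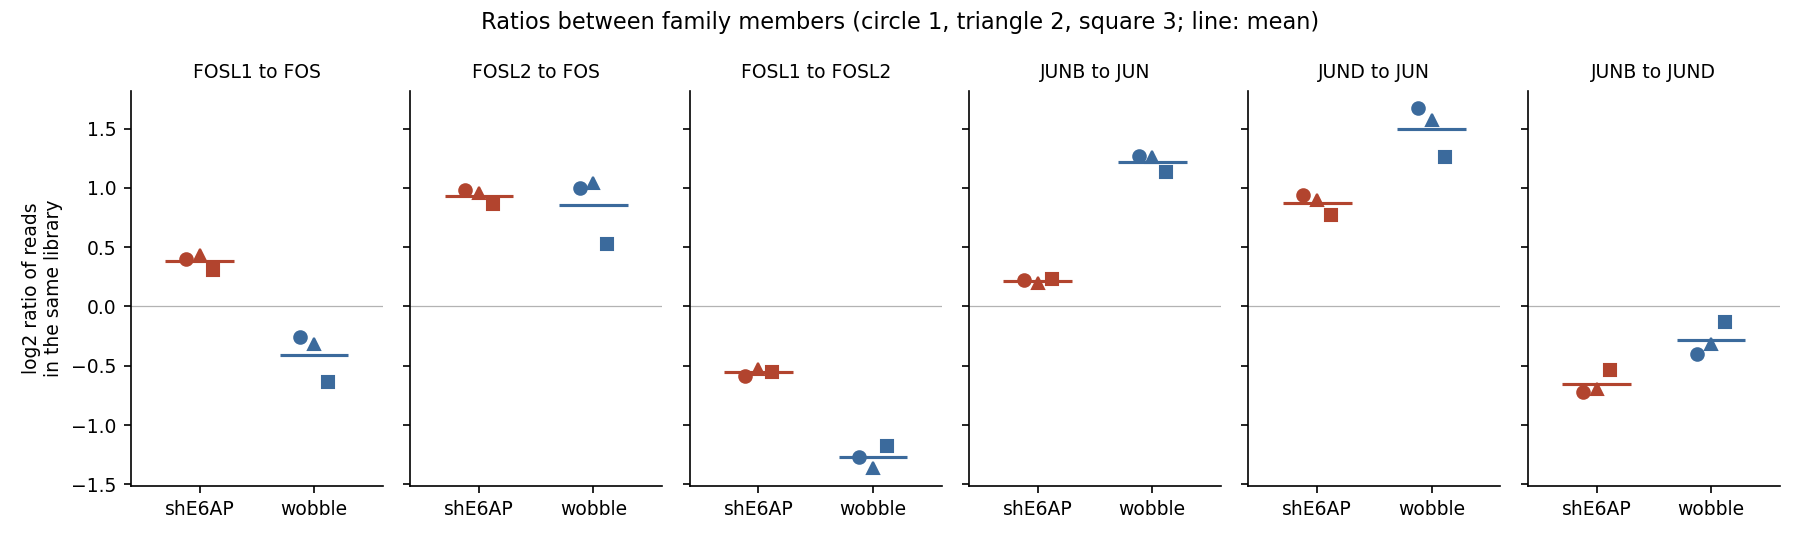
Log2 ratio of the reads of 2 family members in the same library (vertical axis), shE6AP libraries on the left and wobble libraries on the right of each panel; lines are means over 3 libraries. The groups are apart in every panel but FOSL2 to FOS.

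EGR1, a zinc finger factor induced through SRF and ELK proteins, varied more within a group than between groups. It stood at 280, 310 and 367 CPM in shE6AP, against 268, 268 and 355 CPM in wobble. The ranges overlapped, and in both groups the third library was the highest. The log2 fold change was 0.10 (SE 0.064, adjusted p = 0.158 in edgeR), and its 95% interval, from the SE and 4 residual degrees of freedom, was -0.07 to 0.28. That SE is taken in part from other genes, so the interval does not carry the full spread of EGR1 between libraries. The call depended on which libraries entered and how. Blocked on replicate number it was 0.11 (adjusted p = 0.000134), without wobble library 3 it was 0.25 (adjusted p = 0.000188), without shE6AP library 1 it was 0.19 (adjusted p = 0.00678), and without shE6AP library 3 it was -0.01 (adjusted p = 0.929).

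IER3 and PHLDA1 had the largest rises. IER3, which encodes a small membrane protein of the early stress response that affects cell survival, stood at 243, 254 and 280 CPM in shE6AP, against 140, 137 and 150 CPM in wobble. The lowest shE6AP library exceeded the highest wobble library by a wide margin. The log2 fold change was 0.86 (SE 0.039, adjusted p = 9.65e-23 in edgeR), and 9.07% of tested genes had a larger change either way. PHLDA1, a pleckstrin homology-like protein whose gene responds to ERK signalling, stood at 468, 457 and 493 CPM in shE6AP, against 186, 184 and 190 CPM in wobble. Its raw reads numbered 13357, 9764 and 11824 for shE6AP and 5620, 5309 and 5136 for wobble libraries. The gap between the groups was many times the spread within either. The log2 fold change was 1.34 (SE 0.034, adjusted p = 3e-32 in edgeR), and 3.46% of tested genes changed more. Both genes overlap other annotated genes in GENCODE 29 that were not analysed here, so reads in those overlaps cannot be assigned.

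MYC rose slightly. It stood at 101, 100 and 102 CPM in shE6AP, against 85.5, 86.3 and 96.1 CPM in wobble. The groups did not overlap, although the third wobble library lay nearer to the shE6AP libraries than to its own group. The log2 fold change was 0.18 (SE 0.039, adjusted p = 0.000126 in edgeR), and 64.5% of tested genes had a larger change. Against a fold of 1.2, edgeR's glmTreat did not call MYC (adjusted p = 1), FOSL2 (adjusted p = 0.123) or JUND (adjusted p = 0.349).

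**Figure D3:**
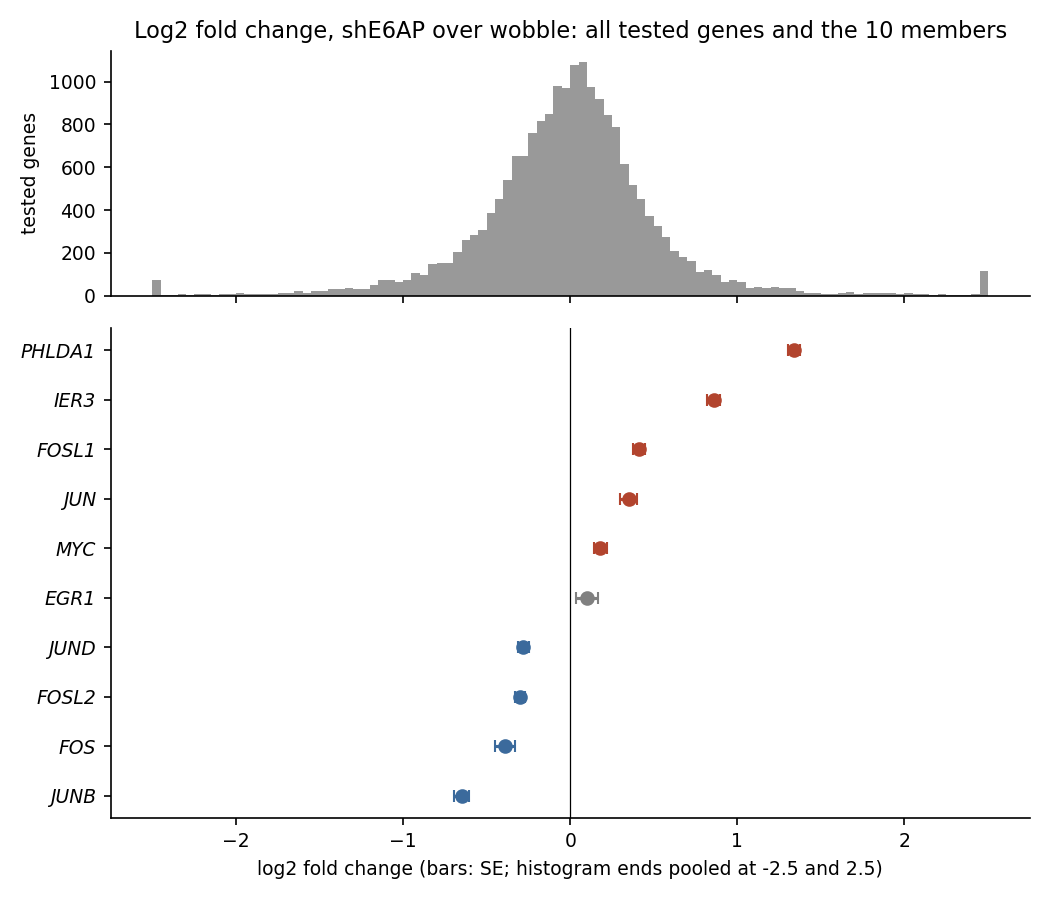
Horizontal axis: log2 fold change, shE6AP over wobble, for all 19433 tested genes as a histogram and for each member as a point with its SE. Red points rose, blue points fell and the grey point, EGR1, did not pass; members run from 1.34 for PHLDA1 to -0.65 for JUNB.

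The members also differed in how far libraries of a group lay from each other. The pooled within-group SD of log2 CPM was 0.22 for EGR1, 0.18 for FOS and 0.15 for JUN, against a median of 0.051 over the 10709 genes of at least 10 CPM. Of those genes, 99.9% had a smaller SD than EGR1, 99.7% than FOS and 99.2% than JUN. Because edgeR takes variance in part from other genes, its SEs for EGR1, FOS and JUN do not carry this wider spread in full. FOSL2, JUND, PHLDA1 and FOSL1 lay at 0.030, 0.042, 0.043 and 0.047, below that median. The spread had a direction. In both groups the library numbered 3 was the highest for 7 of the 10 members, FOS, JUN, JUNB, EGR1, IER3, PHLDA1 and MYC. The same held for 20 of 36 other early response genes of at least 10 CPM (55.6%) and for 15% of all genes of that level. EGR1 lay 0.21 above the group mean in shE6AP library 3 and 0.27 above it in wobble library 3, and NR4A1, an orphan nuclear receptor of the same early class, 0.22 and 0.30. The labels do not say what the numbers stand for. Without both of these libraries the counts were 6 members higher and 4 lower, since EGR1 then passed (log2 fold change 0.14, adjusted p = 0.0104 in edgeR), and FOS had a log2 fold change of -0.26 (adjusted p = 6.19e-06); this alternative was chosen after seeing the data.

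**Figure D4:**
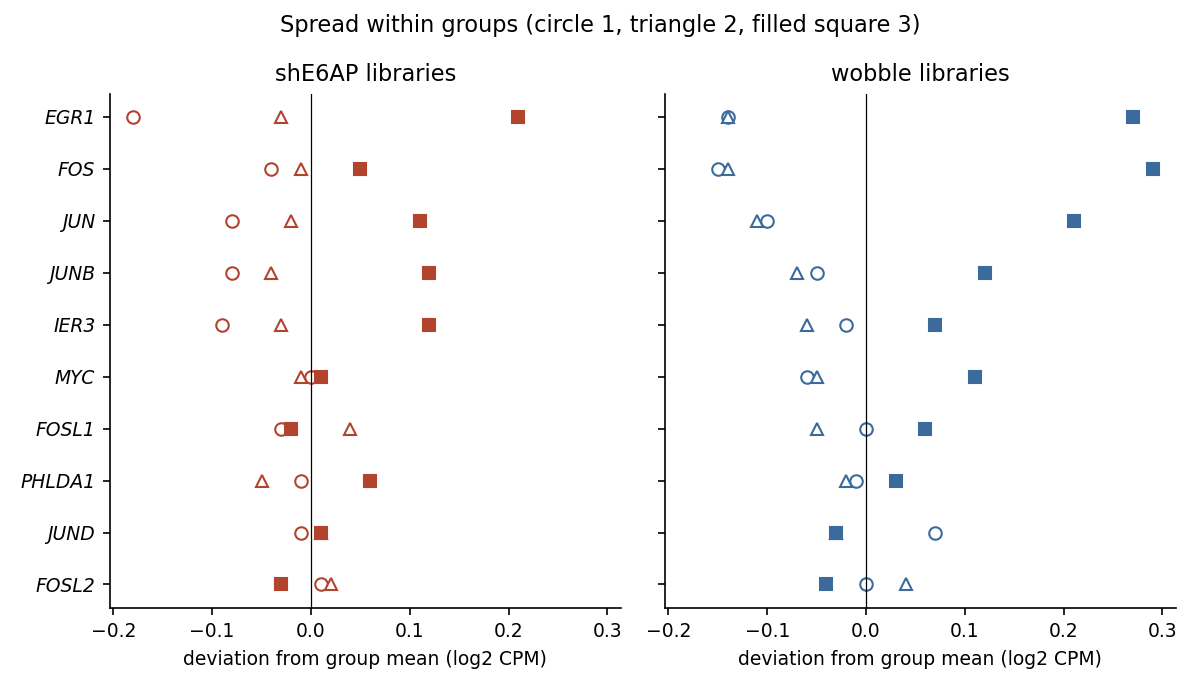
Deviation of each library from its group mean in log2 CPM (horizontal axis) for each member, shE6AP libraries on the left and wobble libraries on the right, members ordered by spread with the widest on top. Filled squares, the libraries numbered 3, lie highest in both groups for 7 of the 10.

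Levels of different genes were set side by side per kilobase of exon, with lengths from GENCODE 29, which may not be the authors' annotation, so the order is approximate. In shE6AP, IER3 came first with 191 ± 14.0 CPM per kilobase, and EGR1 (102 ± 14.1) and JUND (95.7 ± 0.620) came next with ranges that overlapped. FOSL1 followed with 82.4 ± 2.06, then JUNB (62.5 ± 4.58) and PHLDA1 (58.6 ± 2.29), which overlapped as well. FOS (39.6 ± 1.42), MYC (33.7 ± 0.333), FOSL2 (32.8 ± 0.473) and JUN (27.6 ± 1.86) were the lowest, and their ranges did not overlap (SD, n = 3 throughout). In wobble, JUND led with 116 ± 4.96 CPM per kilobase, followed by IER3 (105 ± 5.02), JUNB (98.0 ± 7.0) and EGR1 (94.6 ± 16.0), the last 3 with overlapping ranges. FOSL1 (62.0 ± 2.17) and FOS (52.0 ± 9.53) overlapped too. FOSL2 (40.3 ± 1.03) and MYC (29.8 ± 1.97) came below them, then PHLDA1 (23.1 ± 0.379) and JUN (21.7 ± 2.86), which overlapped. JUN was thus the lowest of the 10 in both groups on this scale, and PHLDA1 stood sixth in shE6AP and ninth in wobble.

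Other genes of the same biology were described from lists that were not chosen independently of these data. Counts are read against the 59.0% of all genes that passed and against a median log2 fold change of 0.00837 over all tested genes. Of 13 tested genes for other AP-1 subunits and their dimer partners, 6 rose, 2 fell and 5 did not pass, with a median log2 fold change of 0.09. MAFF, a small MAF protein, averaged 25.1 ± 0.616 CPM in shE6AP and 12.3 ± 0.867 CPM in wobble (SD, n = 3 each), and MAFG rose by 0.49 and CREB5 by 0.42 on the log2 scale. ATF2, a JUN partner, fell by 0.37 and ATF3, a stress-induced factor, by 0.26. FOSB, the remaining FOS gene, was barely expressed, with 98, 82 and 76 reads in shE6AP libraries, against 59, 69 and 153 in wobble libraries, and did not pass (adjusted p = 0.737 in edgeR). In the MYC network of 12 tested genes, 4 rose, 5 fell and 3 did not pass, with a median of -0.01. MXD4, which competes with MYC for MAX and represses, averaged 101 ± 2.60 CPM in shE6AP and 166 ± 4.93 CPM in wobble (SD, n = 3 each). MXD1, of the same group, fell by 0.43 and MLXIPL by 0.49, whereas MXD3 rose by 0.70, MYCBP by 0.45 and MLX by 0.26. MAX itself did not pass, at 50.3 ± 0.749 CPM in shE6AP and 51.2 ± 0.0224 CPM in wobble (SD, n = 3 each).

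The wider set of early response genes moved both ways. Of 41 tested, 19 rose, 14 fell and 8 did not pass, with a median log2 fold change of 0.02. So 80.5% passed, against 59.0% of all tested genes and 80.0% of genes at the members' level. Many of the 41 lie below that level, so the 80.0% is not matched to them. NR4A2, an orphan nuclear receptor, averaged 50.8 ± 4.11 CPM in shE6AP and 12.3 ± 0.716 CPM in wobble. SIK1, a salt-inducible kinase, averaged 179 ± 4.93 CPM in shE6AP and 59.4 ± 3.20 CPM in wobble, and PLK2, a polo-like kinase, 83.7 ± 2.23 CPM in shE6AP and 38.0 ± 0.886 CPM in wobble. BHLHE40, a transcriptional repressor, averaged 48.2 ± 4.10 CPM in shE6AP and 108 ± 7.40 CPM in wobble (SD, n = 3 each in these sentences). PHLDA3 and KLF2 each fell by 1.12 on the log2 scale. Among 21 kinases and factors upstream, 6 rose, 8 fell and 7 did not pass, with a median of -0.07. MAP2K2, which encodes MEK2, fell by 0.54 and MAP2K4, a kinase of the JNK route, by 0.71 on the log2 scale. ARAF rose by 0.28, MKL1, an SRF cofactor, by 0.23 and MAPK8, which encodes JNK1, by 0.19. These are transcript levels, and kinase activity was not measured.

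Genes that act on the turnover of the members' proteins, or on RNAs with AU-rich elements, moved both ways. The shares that passed were 76.9% and 81.8% in the 2 lists, against 59.0% of all tested genes. They were 80.0% for genes at the members' level, but many genes of the 2 lists lie outside that level. Of 13 genes for ubiquitin enzymes and cofactors that act on AP-1 or MYC proteins, 5 rose, 5 fell and 3 did not pass, with a median log2 fold change of 0.17. SKP2, a substrate receptor for MYC, averaged 148 ± 2.62 CPM in shE6AP and 88.5 ± 4.0 CPM in wobble (SD, n = 3 each). KIAA1524, which encodes the MYC-stabilising protein CIP2A, rose by 0.53 and USP36 by 0.37. DDB1 fell by 0.59 and CUL4A by 0.66, which form the ligase core used for JUN by DET1 and COP1, and STUB1 fell by 0.26. FBXW7, the receptor for phosphorylated MYC and JUN, did not pass, at 9.06 ± 0.355 CPM in shE6AP and 7.99 ± 0.374 CPM in wobble (SD, n = 3 each). The list called AU-rich element decay factors covers decay and other control of RNAs with these elements, which occur in many early response transcripts. Of its 11 genes, 2 rose, 7 fell and 2 did not pass, with a median of -0.11. CNOT7, a deadenylase, rose by 0.50 and HNRNPD by 0.33, while PARN fell by 0.37, ZFP36L2 by 0.30 and ZFP36 by 0.33.

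Genes described as targets did not move in a single direction. Of 16 tested AP-1 targets, 9 rose, 6 fell and 1 did not pass, with a median log2 fold change of 0.22. The share that passed was 93.8%, against 59.0% of all tested genes. It was 80.0% for genes at the members' level, but many of the AP-1 targets lie outside that level. IL11, a cytokine, averaged 38.3 ± 1.6 CPM in shE6AP and 9.63 ± 0.257 CPM in wobble, and PLAUR, the urokinase receptor, which is also an early response gene, rose by 0.46 and TIMP1 by 0.43. CD44, an adhesion receptor, averaged 102 ± 2.85 CPM in shE6AP and 297 ± 4.95 CPM in wobble, and IL6 averaged 6.40 ± 0.524 CPM in shE6AP and 18.3 ± 1.99 CPM in wobble (SD, n = 3 each). VEGFA fell by 0.61. Of 33 genes induced by MYC, 19 rose, 5 fell and 9 did not pass, so 72.7% passed, with a median of 0.18. NOP56, a ribosome biogenesis factor, averaged 195 ± 2.47 CPM in shE6AP and 116 ± 4.18 CPM in wobble (SD, n = 3 each), TFRC rose by 0.64 and ODC1, of polyamine synthesis, by 0.58. CDK4 fell by 0.93, PHB by 0.60 and CAD, of pyrimidine synthesis, by 0.33. Of 9 tested genes repressed by MYC, 5 rose, 3 fell and 1 did not pass, so 88.9% passed, with a median of 0.18. NDRG1, CDKN1B and GADD45A rose by 1.84, 0.33 and 0.47, and ID2, CDKN1A and CDKN2B fell by 1.51, 0.70 and 0.35 on the log2 scale.

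**Figure D5:**
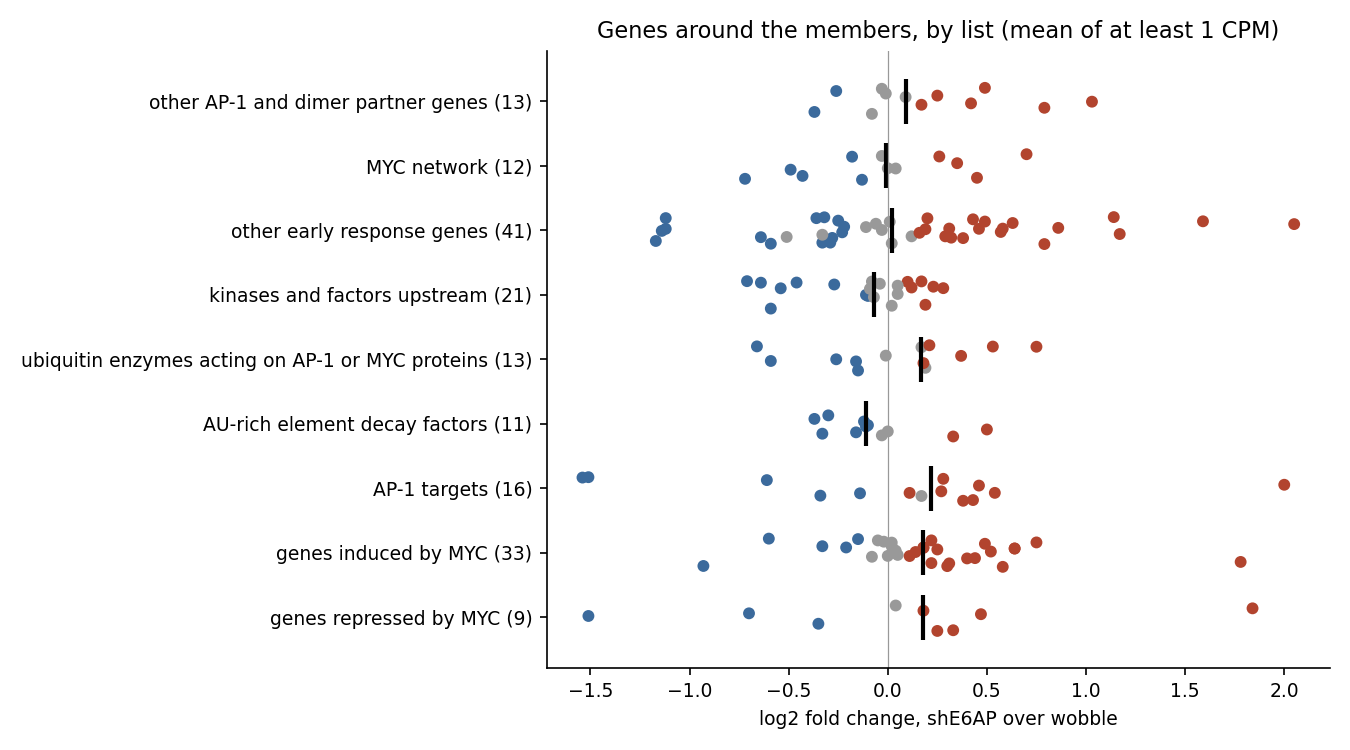
Horizontal axis: log2 fold change, shE6AP over wobble, for genes of 9 lists (vertical axis, number tested in brackets), red where they rose, blue where they fell and grey where they did not pass; genes averaging under 1 CPM are not drawn. Black bars are the medians over all tested genes of a list, from -0.11 for AU-rich element decay factors to 0.22 for AP-1 targets.

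The genes most like the extreme members were found as those with the smallest Euclidean distance in gene-centred log2 CPM over the 6 libraries, among 12383 other genes of at least 5 CPM. For PHLDA1 these were AFAP1L2 (distance 0.0948, log2 fold change 1.37), LAMB3 (0.124, 1.32), a laminin chain, and C5orf13 (0.138, 1.25). For JUNB they were GLRB (0.0747, -0.65), RP4-665J23.1 (0.0877, -0.68) and DNAH1 (0.0929, -0.71). With 6 libraries in 2 groups, this distance takes in the difference between the groups together with the spread within them.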

How the data were processed

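The deposited table holds raw counts, whole reads on each gene, in 1 column per library. Per the submitters' processing notes, HTSeq made the counts from hg19 alignments by TopHat2 2.0.13 with Bowtie2. Per the labels' protocols, RNA was isolated with TRIzol and libraries came from the version 2 TruSeq RNA kit. Annotation and strand setting: not given in the sources used here. Left out of library sizes and tests were 4 of the 33839 rows: HTSeq's no_feature (14.6% to 16% of reads) and ambiguous (2.05% to 2.21%) rows, an unnamed row (up to 4.59e-05%) and a row lacking values.

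From the counts, edgeR 4.0.16 (R 4.3.3) with filterByExpr, TMM factors and the quasi-likelihood test compared shE6AP with wobble with group as the only term, with Benjamini-Hochberg adjustment over 19433 genes. The SE was derived from the log2 fold change and the F statistic. Within-group spread and likeness used log2 CPM with a prior count of 2, and ratios used reads plus 0.5. Between libraries within groups the chi-square per gene was 1.76 to 3.52, above sampling noise, so none was counted as a repeat. Libraries with the same number deviated together, weakly, from their group means over 10709 genes of at least 10 CPM (correlations of 0.307, 0.109 and 0.217). For libraries with different numbers the correlations ran from -0.222 to 0.021, and some were larger in size than 0.109. Deviations are taken from the mean of the same 3 libraries, so these correlations are not independent. The numbers were taken as pairs from the data and not from the labels, so the pairing is uncertain. The main test and the ratio tests do not use the pairs, which enter only as the replicate block. Alternatives were DESeq2 1.42.0, limma-voom (limma 3.58.1), scaling by RLE, upper quartile or library total, no low-count filter, 1 CPM in 3 libraries, the replicate block, each library left out, glmTreat against a fold of 1.2 and 1 read added to ratios. The pipeline was tested on simulated data.

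The members and lists were chosen with earlier results of these data known. Named list genes passed the test and averaged 1 CPM or more, up to 3 each way by smallest p, except that some genes the rule takes are not reported here; FOSB, MAX, FBXW7, ITGAM and NR4A1 were added after their values were seen, as were PHLDA2, NR4A3, EGR2 and IER2.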

Additional observations from a re-analysis of the deposited data

How the results depend on the processing

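Directions and calls of FOSL1, JUN, JUNB, FOS, IER3 and PHLDA1 held under every alternative run. For FOS and JUN the margin was small with DESeq2 (adjusted p = 0.0253 and 0.0095) and with glmTreat (adjusted p = 0.0164 and 0.0497). The fold change of EGR1 ran from -0.01 to 0.25 when single libraries were left out, and its call appeared with the replicate block (log2 fold change 0.11), with no low-count filter (0.08), and without shE6AP library 1, wobble library 3 or both libraries numbered 3. The block changed no other member's call; it gave 6 members higher and 4 lower, and in the lists 16 early response genes lower (14 without it), 9 upstream genes lower (8), 6 ubiquitin enzymes higher (5) and 10 AP-1 targets higher (9). Scaling shifted the median over genes by at most 0.0284. The FOSL2 to FOS ratio difference ran from -0.09 to 0.17 without single libraries and was -0.05 without both numbered 3; the cause was not tested. The other ratios kept their sign, with JUNB to JUN between -1.05 and -0.97 over all alternatives. With 1 library left out, 5 to 6 members were higher and 4 lower.

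Against a fold of 1.2, a stricter question by construction, fewer genes passed: 5637 in place of 11467, 2553 higher and 3084 lower, and 4 members higher and 2 lower. By list the counts with glmTreat, and in brackets the main ones, were for other AP-1 genes 4 higher and 1 lower (6 and 2). The MYC network had 2 and 3 (4 and 5), and early response genes 12 and 7 (19 and 14). Upstream genes had 0 and 5 (6 and 8), and ubiquitin enzymes 3 and 2 (5 and 5). Decay factors had 2 and 1 (2 and 7), and AP-1 targets 6 and 5 (9 and 6). Genes induced by MYC had 10 and 3 (19 and 5), and genes repressed by MYC 3 and 3 (5 and 3).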

Other observations

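PHLDA1 belongs to a family of 3, whose members moved apart. PHLDA2, an imprinted relative, averaged 50.3 ± 1.99 CPM in shE6AP and 22.3 ± 0.392 CPM in wobble, a 2.26-fold difference, while PHLDA3 averaged 18.5 ± 1.02 CPM in shE6AP and 40.1 ± 1.79 CPM in wobble (SD, n = 3 each). Both passed in edgeR (adjusted p = 1.32e-24 for PHLDA2 and 4.08e-22 for PHLDA3). The NR4A family of orphan nuclear receptors split likewise, with NR4A2 at 4.13-fold and NR4A3 at 1.73-fold of the wobble level and NR4A1 at 101 ± 13.6 CPM in shE6AP and 151 ± 28.6 CPM in wobble (SD, n = 3 each). The EGR genes other than EGR1 were scarce: EGR2 averaged 1.66 ± 0.370 CPM in shE6AP and 3.70 ± 2.11 CPM in wobble. IER2, an early response gene like IER3, fell to 162 ± 14.7 CPM in shE6AP, against 197 ± 14.6 CPM in wobble (SD, n = 3 each), the opposite direction to IER3.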
